A study of Mus musculus with 6 samples.

Results

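Serpins, WFDC proteins and other antiproteases are the inhibitors that hold secreted and intracellular proteases in check. Transcripts of this group were measured in alveolar type II cell isolates from mouse lung. The members were the genes whose single platform symbol starts with Serpin (without Serping1) or Wfdc, together with Slpi, Cst3, Cst6, Cstb, A2m, Spink5, Spint1, Spint2 and Tfpi. There were 59 such genes with 81 probe sets, of 18193 genes named singly on the array, and the brightest probe set of a gene stood for it. Of the 59, 32 had a mean log2 signal above the filter (8.08, a signal of 271, the 40th percentile of all probe sets) and 27 lay below it.

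Animals labelled Insig1 ∆/∆ /Insig2 -/-, the deleted group, carried both SpC-rtTA and Otet-CRE with Insig1 flox/flox and Insig2 -/-, so that doxycycline induced Cre in cells using the SFTPC promoter. The control animals, Insig1 flox/flox /Insig2 -/-, lacked either SpC-rtTA or Otet-CRE. Both groups therefore lacked Insig2, both were 2 months old, and the labels give doxycycline from E6.5 to E12.5. Each genotype was measured as 3 pools of RNA, and how many mice made up a pool is not stated in the labels. No group had active Cre with intact Insig1, so an effect of Cre and one of Insig1 loss cannot be told apart.

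In the lung, neutrophil elastase and related serine proteases can destroy the elastic matrix, and antiproteases limit that damage. Serpins are suicide inhibitors, which a target protease cleaves and is then trapped by. WAP-domain proteins such as SLPI, Kunitz inhibitors such as those of the Spint genes and cystatins instead block the active site reversibly. Some family members, among them the collagen chaperone encoded by Serpinh1, inhibit no protease.

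The targeted gene was checked before the members. The Insig1 probe set had signals of 1252, 1442 and 1750 in deleted pools, against 2300.1, 3325 and 2960 in control pools, with a log2 fold change of -0.95 ± 0.18 (SE) and an adjusted p of 0.068 (limma). On the first principal component control replicate 3 lay farthest out, at 39.1, where the deleted pools lay between -18.7 and -12.3 and the other controls at -3.35 and 12.9. Macrophage markers lay higher in deleted isolates. Of the 15 measured, 15 had positive log2 fold changes, 7 rose past the threshold (adjusted p under 0.05, limma) and the median was 0.89. Over all 12952 genes tested, 6358 had positive values and 0.625% rose by the same rule. The summed signal of the macrophage markers was 78724 to 97683 in deleted pools and 39497 to 46275 in control pools. Type II cell markers were present, with summed signals of 719466 to 865153 in deleted pools and 741712 to 879221 in control pools, and none of 11 passed the threshold by limma (Etv5 stood at 0.44, Sftpd at 0.23). In isolates of mixed cells, fewer cells of a type and less RNA per cell cannot be told apart.

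The upstream sequences of 2 members that rose, Wfdc17 and Slpi, are shown with that of Wfdc2, a WAP-domain gene of lung epithelium with no detected difference. Each is the 250 bases before the annotated start of the gene, 5′ to 3′ on the gene's strand, from RefSeq on GRCm38.p6. Wfdc17 is at chr11:83703806-83704055 on the plus strand, Slpi at chr2:164356508-164356757 on the minus strand and Wfdc2 at chr2:164562465-164562714 on the plus strand. Capitals mark matches to any of the 7 motifs searched.
Wfdc17: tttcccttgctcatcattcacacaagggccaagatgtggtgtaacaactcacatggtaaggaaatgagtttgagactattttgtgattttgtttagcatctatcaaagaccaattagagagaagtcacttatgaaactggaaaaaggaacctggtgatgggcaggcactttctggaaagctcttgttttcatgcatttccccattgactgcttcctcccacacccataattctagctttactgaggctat
Slpi: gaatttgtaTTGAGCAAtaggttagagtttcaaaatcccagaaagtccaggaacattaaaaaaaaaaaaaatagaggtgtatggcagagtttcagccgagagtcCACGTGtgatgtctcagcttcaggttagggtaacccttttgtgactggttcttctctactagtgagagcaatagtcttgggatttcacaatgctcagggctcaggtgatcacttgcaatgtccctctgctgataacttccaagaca
Wfdc2: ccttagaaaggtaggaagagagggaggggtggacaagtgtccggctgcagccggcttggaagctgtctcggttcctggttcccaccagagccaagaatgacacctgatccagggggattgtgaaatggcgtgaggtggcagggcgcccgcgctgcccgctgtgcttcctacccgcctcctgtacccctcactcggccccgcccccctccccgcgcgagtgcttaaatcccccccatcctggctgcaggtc

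The upstream sequences differed in base composition, at 41.2% G or C for Wfdc17 and 42% for Slpi against 64.8% for Wfdc2. The motifs were searched on both strands. They were an SREBP-type sterol element (TCACNNCAC, in 3.14% of 27025 promoters of this length), an E-box (CACGTG, 5.93%), an NF-kappaB-type motif (GGGA and CC with 4 bases between them, 17.3%), STAT-type (TTCNNNGAA, 7.11%), C/EBP-type (TTGCNNAA, 9.53%), AP-1-type (TGANTCA, 6.87%) and TATA-type (TATAAA, 12.9%). The Slpi window held the E-box, 146 to 141 bases before the start, and a C/EBP-type match on the minus strand 241 to 234 bases before it. These 2 matches did not overlap. The Wfdc17 and Wfdc2 windows held none of the 7. Of the 47 members with a promoter sequence, 1 held the sterol element (Serpina3i), 1 the E-box (Slpi) and 10 the C/EBP-type motif. The NF-kappaB-type, AP-1-type and TATA-type motifs were each held by 8 members, and the STAT-type by 3. Whether these counts differ from the shares of all promoters was not tested.

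The only antiprotease genes past the threshold were 3 genes of the WAP-domain group, and all 3 were higher in Insig1-deleted isolates. They were Wfdc17, Wfdc21 and Slpi, 3 of the 9 WFDC and Slpi genes above the filter, and none of the 32 members fell past the threshold by limma (3 had a negative value with an unadjusted p below 0.05, as did 6.02% of all genes tested). Over all 12952 genes tested, 0.625% rose and 0.0232% fell by the same rule. The median log2 fold change was -0.05 over the 32 members and -0.0049 over all genes tested.

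Wfdc17, described in mouse as a WAP-domain protein of activated macrophages and microglia, had signals of 1766, 1775 and 2130.4 in deleted pools, against 292, 529 and 334 in control pools. The lowest deleted pool was far above the highest control pool. The fold was 5.06 (log2 2.34 ± 0.24 SE, adjusted p = 0.0041, limma). Every control pool had a signal above the filter value. Wfdc17 passed in all 16 alternative fits, including the 6 that leave out a pool, where its log2 fold change ran from 2.16 to 2.59.

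Slpi, the secretory leukocyte protease inhibitor that blocks neutrophil elastase and cathepsin G, had signals of 13640.1, 17714 and 13130.3 in deleted pools, against 6609.6, 4448 and 4088 in control pools. The groups were again separate, and deleted replicate 2 was the highest pool. The fold was 2.98 (log2 1.57 ± 0.19 SE, adjusted p = 0.0086, limma). The call was lost by limma without deleted replicate 1 (adjusted p = 0.055) and without deleted replicate 2 (adjusted p = 0.057), at log2 fold changes of 1.63 and 1.44, and when no intensity trend was fitted (adjusted p = 0.061).

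Wfdc21, a small WAP-domain gene that lies near Wfdc17, had signals of 4460.1, 2908 and 3066 in deleted pools, against 1060.1, 1293 and 722 in control pools. Deleted replicate 1 was the highest, and the groups did not overlap. The fold was 3.43 (log2 1.78 ± 0.24 SE, adjusted p = 0.014, limma). This call was lost by limma without deleted replicate 1, 2 or 3 (adjusted p = 0.079, 0.058 and 0.064) and without control replicate 1 (adjusted p = 0.067). It was also lost when no intensity trend was fitted (adjusted p = 0.075, limma). Macrophage markers were higher in the same deleted pools, and their part in the signals of Wfdc17, Slpi and Wfdc21 was not tested.

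**Figure D1:**
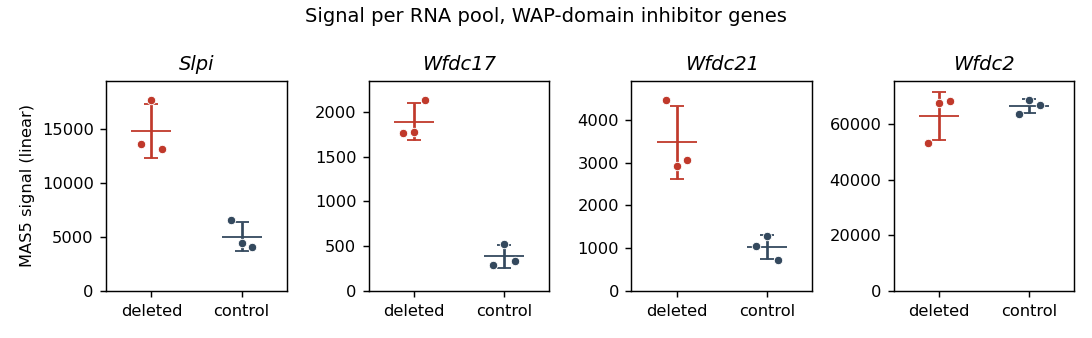
MAS5 signal on a linear scale (vertical axis, from 0) in each RNA pool for Slpi, Wfdc17, Wfdc21 and Wfdc2, with deleted pools on the left and control pools on the right. Points are pools, and the bar and whiskers are the mean ± SD of 3 pools. For the 3 genes that rose every deleted pool lies above every control pool, whereas the Wfdc2 groups overlap.

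The other WFDC genes showed no detectable difference. Wfdc2 had signals of 53139, 67693 and 68328 in deleted pools, against 63829.9, 68729 and 66984 in control pools. Deleted replicate 1 was the lowest, and the other pools lay close together. Its log2 fold change was -0.09, with a 95% confidence interval of -0.37 to 0.20 (adjusted p = 0.85, limma). Together with Wfdc1, Wfdc3, Wfdc12, Wfdc15a and Wfdc15b, these 6 genes had log2 fold changes between -0.33 and 0.02, the smallest adjusted p being 0.73 (limma). Wfdc5, Wfdc6a and Wfdc18 lay below the filter.

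Along chromosome 11, Wfdc17, Wfdc18 and Wfdc21 are consecutive protein-coding genes in the GRCm38.p6 annotation, beside a group of chemokine genes. This stretch was chosen for description after its values had been seen. On the chemokine side, the log2 fold changes were 0.90 for Ccl5, 1.40 for Ccl9, 1.85 for Ccl6, 0.70 for Ccl3 and 0.23 for Ccl4. Of these Ccl6 (adjusted p = 4.4e-04, limma) and Ccl9 (adjusted p = 0.034, limma) rose. On the other side, Heatr6, Ddx52, Synrg and Dusp14 had values of 0.17, -0.03, 0.01 and -0.78, none of them past the threshold by limma. Around Slpi on chromosome 2, the tested neighbours Matn4, Rbpjl, Sdc4 and Sys1 had values of 0.53, 0.62, 0.28 and 0.09, and none passed by limma (adjusted p of 0.36 or more). Most of the WAP-domain members lie on chromosome 2 as well, including Wfdc2.

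**Figure D2:**
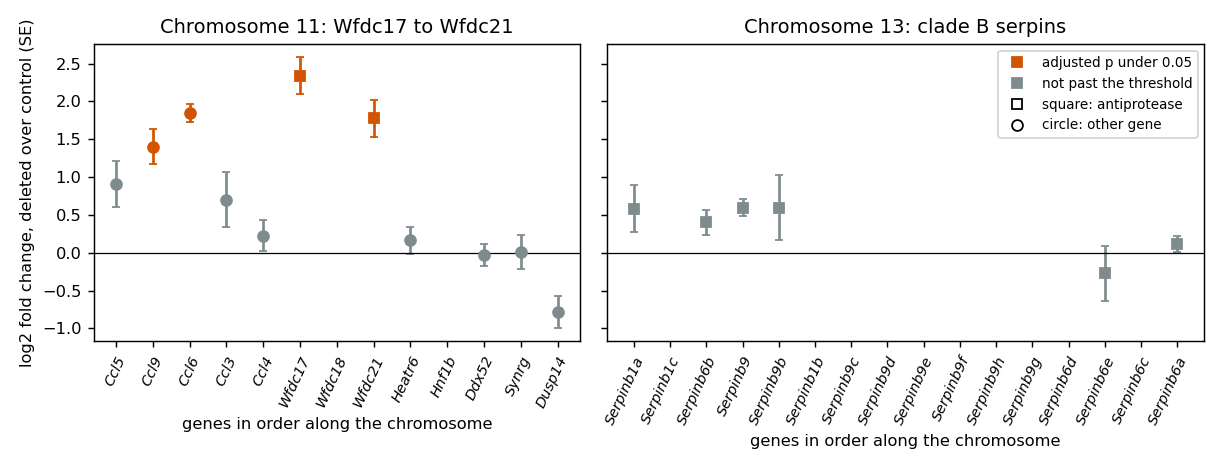
Log2 fold change, deleted over control, with its SE (vertical axis) for protein-coding genes in order along chromosome 11 (left) and chromosome 13 (right). Genes with no point were below the filter or had no probe set naming them alone. Wfdc17, Wfdc21, Ccl6 and Ccl9 passed the threshold, and no clade B serpin on chromosome 13 did.

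Clade B serpins are the intracellular branch, which guards cells against their own granule proteases. None of the 8 above the filter passed the threshold by limma, and 2 had positive values with an unadjusted p below 0.05 (6.05% of all genes tested). Serpinb9, the inhibitor of granzyme B, came nearest, with signals of 12985, 12633 and 11991 in deleted pools, against 8176.5, 9328 and 7470.5 in control pools. The groups did not overlap, and the fold of 1.51 (log2 0.60 ± 0.11 SE) had an adjusted p of 0.068 (limma). A dimmer probe set of the gene gave a log2 fold change of 0.55 (adjusted p = 0.40, limma with probe sets tested singly). Serpinb9 passed with array weights (adjusted p = 0.018, limma) and without control replicate 2 (log2 0.68, adjusted p = 0.014, limma). Of all genes tested, 259 and 477 passed in these fits, against 84 in the reported fit. In the other alternative fits Serpinb9 did not pass at 0.05. Its largest adjusted p was 0.33 (limma), without deleted replicate 2.

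Serpinb6b had signals of 17665, 16047 and 15272 in deleted pools, against 12299.9, 15772 and 9697 in control pools. Its control pools spread widely and overlapped the deleted ones (log2 0.40 ± 0.17 SE, adjusted p = 0.39, limma). The value was 0.23 without control replicate 3 and 0.58 without control replicate 2 (adjusted p = 0.057, limma). Serpinb6a, an inhibitor of cathepsin G, had signals of 11123, 11016 and 10374 in deleted pools, against 10766.5, 9259.5 and 10100.8 in control pools, a log2 fold change of 0.11 (95% confidence interval -0.13 to 0.35). Serpinb1a, which inhibits elastase, cathepsin G and proteinase 3, had a value of 0.59, and Serpinb9b 0.60. Serpinb1a, Serpinb6b, Serpinb9 and Serpinb9b lie near each other on chromosome 13, with Serpinb6a and Serpinb6e further along. Serpinb6e (-0.27), Serpinb2 (-0.34), which inhibits urokinase, and Serpinb8 (-0.42) had negative values. None of the 6 other than Serpinb9 and Serpinb6b passed (adjusted p of 0.49 or more, limma).

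**Figure D3:**
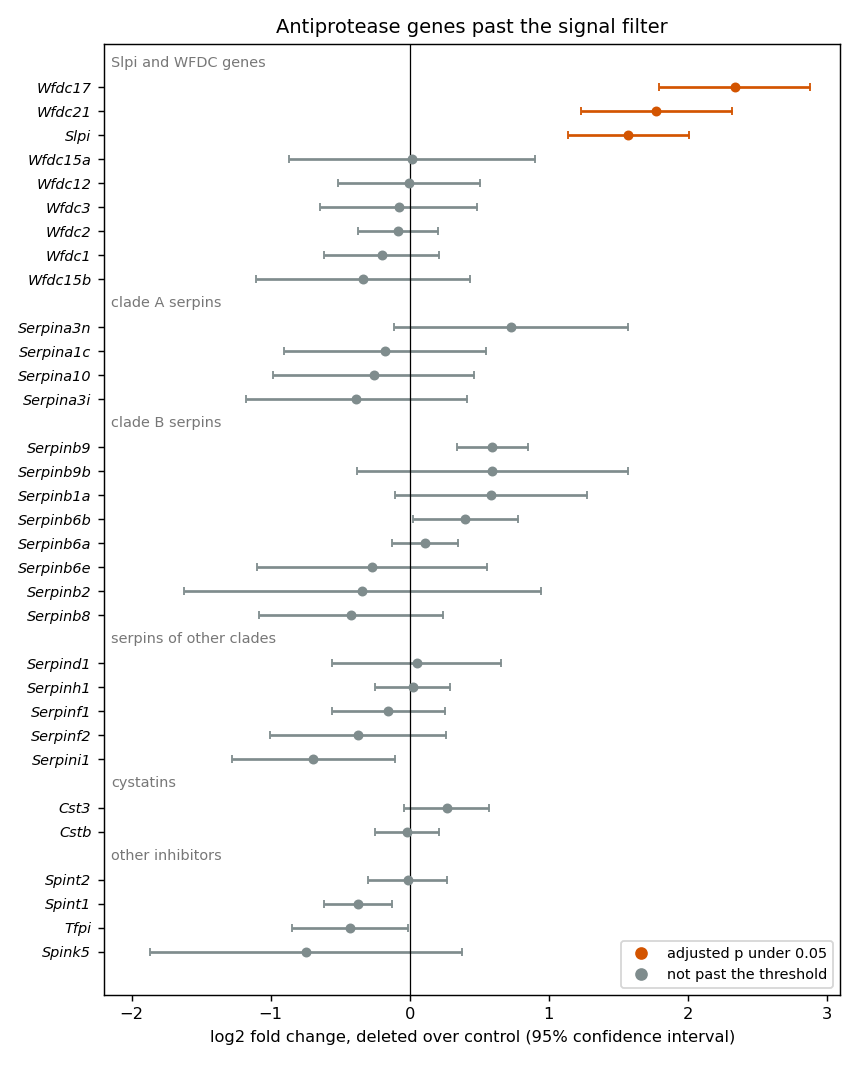
Log2 fold change, deleted over control (horizontal axis), with its 95% confidence interval from limma, for the 32 members above the filter grouped by family. Wfdc17, Wfdc21 and Slpi, in orange, lie to the right of 0 with the rest of the members on either side of it.

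Clade A serpins include the antitrypsins, which the liver secretes as the main plasma inhibitors of elastase. Of 14 on the array 4 were above the filter, and none passed by limma on adjusted or unadjusted p. Serpina3n, an acute-phase serpin, had signals of 647.7, 1524 and 1817 in deleted pools, against 749.7, 549 and 958.5 in control pools. Deleted replicate 1 lay among the controls, and the log2 fold change of 0.73 ± 0.37 (SE) had an adjusted p of 0.47 (limma). Serpina1c (-0.18), an antitrypsin gene, Serpina10 (-0.26), the protein Z-dependent protease inhibitor, and Serpina3i (-0.38) had negative values. Antitrypsin and Serpina3 genes are families of near-identical copies, so their probe sets may read more than the gene they name.

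Serpins of other clades are mostly secreted. Serpini1, neuroserpin, an inhibitor of tissue plasminogen activator, had signals of 291.5, 248 and 286.5 in deleted pools, against 398, 454 and 486 in control pools. The groups did not overlap, but the signals lay near the filter value, and the log2 fold change of -0.69 ± 0.26 (SE) had an adjusted p of 0.34 (limma). Serpinh1, the collagen chaperone, had 5631, 5414 and 5726.5 in deleted pools, against 5356, 4969 and 6263 in control pools. Its log2 fold change was 0.02 (95% confidence interval -0.25 to 0.29). Serpinf1, which encodes the antiangiogenic protein PEDF, had 3353, 3148 and 3948 in deleted pools, against 4381, 4462 and 2931 in control pools, with control replicate 3 the lowest pool (log2 -0.15, adjusted p = 0.80, limma, and between -0.35 and -0.05 with each pool left out in turn). Serpinf2, the plasmin inhibitor (-0.37), and Serpind1, the thrombin inhibitor heparin cofactor (0.05), did not pass either.

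Cystatins inhibit cysteine cathepsins, and 2 of them lay above the filter. Cst3, the secreted cystatin C, had signals of 26078, 26482 and 27672 in deleted pools, against 25893, 23089 and 18423 in control pools. The groups were separate by a narrow margin (log2 0.27 ± 0.13 SE, adjusted p = 0.47, limma), and without control replicate 3 the value was 0.13. Cstb, the intracellular cystatin B, had 42549, 45061.5 and 42453 in deleted pools, against 41256, 46276 and 44500.0 in control pools. Its groups overlapped fully, with a log2 fold change of -0.02 (95% confidence interval -0.25 to 0.21).

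The membrane-bound Kunitz inhibitors of matriptase-type proteases were both measured. Spint1 had signals of 5797, 5846 and 5298 in deleted pools, against 7479, 7693 and 6743 in control pools. Every deleted pool was below every control pool, and the log2 fold change of -0.37 ± 0.11 (SE) had an adjusted p of 0.23 (limma). Spint2 had 27007, 28889 and 29422 in deleted pools, against 28532, 33232 and 24915 in control pools (log2 -0.01, 95% confidence interval -0.30 to 0.27). The Spint2 pools overlapped throughout.

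Tfpi, the inhibitor of tissue factor-driven coagulation, had signals of 670.5, 553 and 657 in deleted pools, against 790.4, 825 and 912 in control pools. These groups were separate (log2 -0.43 ± 0.19 SE, adjusted p = 0.40, limma), but 3 dimmer Tfpi probe sets gave 0.47, 0.03 and -0.20, so no direction held for the gene. Spink5, an inhibitor of kallikreins, had 729.8, 605.5 and 670.1 in deleted pools, against 1527, 424.5 and 2158 in control pools. Its control pools lay on both sides of the deleted ones (log2 -0.75 ± 0.50 SE, adjusted p = 0.60, limma), and without control replicate 2 it was called lower (log2 -1.45, adjusted p = 0.011, limma). Without control replicate 3 the value was -0.27 (adjusted p = 0.88, limma). Of all genes tested, 477 passed without control replicate 2, against 84 in the reported fit.

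**Figure D4:**
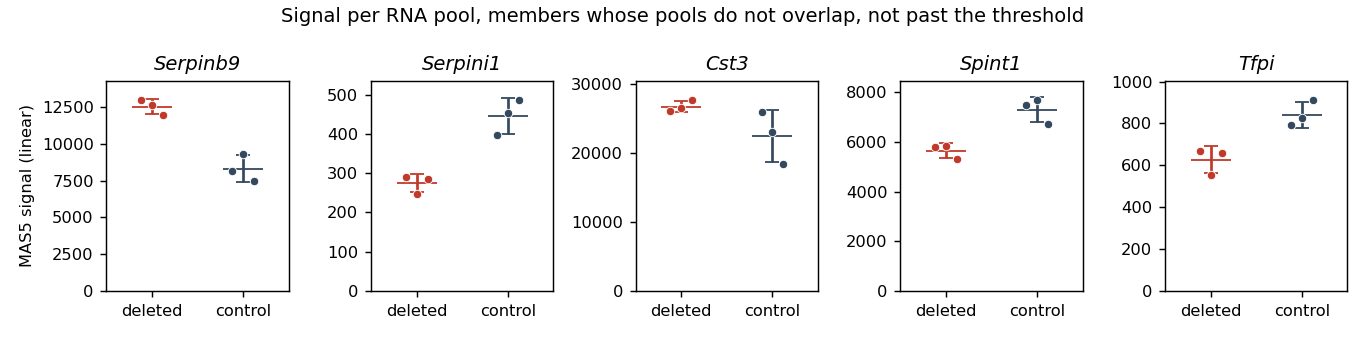
MAS5 signal on a linear scale (vertical axis, from 0) in each RNA pool for the 5 members whose groups did not overlap but which missed the threshold, deleted pools left and control pools right. Points are pools, with the mean ± SD of 3. Serpinb9 and Cst3 lie higher in deleted pools, and Serpini1, Spint1 and Tfpi lower.

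In all, 5 of the 32 members had every deleted pool above every control pool, where 9.2% of all genes tested did, and 3 had every deleted pool below, where 7.9% did. With the unadjusted p below 0.05 (limma) there were 5 higher and 3 lower, against 6.05% and 6.02% of all genes. The 17 members above the filter that neither passed, nor had separate groups, nor were among the 12 brightest had log2 fold changes between -0.75 and 0.73. The 27 members below the filter were A2m, Cst6, Serpina1b, Serpina1f, Serpina3a, Serpina4-ps1, Serpina5, Serpina6, Serpina7, Serpina9, Serpina11, Serpina12, Serpinb1b, Serpinb3a, Serpinb5, Serpinb6c, Serpinb7, Serpinb9c, Serpinb9d, Serpinb9g, Serpinb11, Serpinb12, Serpinc1, Serpini2, Wfdc5, Wfdc6a and Wfdc18. In a fit without the filter none of these passed by limma (smallest adjusted p = 0.25), and 3 had an unadjusted p under 0.05. These 3 were the clade A serpins Serpina9 (log2 -2.98), Serpina1f (-1.98) and Serpina6 (-2.07), all lower in deleted pools. The share of all genes with such a p in the fit without the filter was not counted, so no excess can be read from them. Serpina9, known from germinal centre B cells, had signals of 18.6, 215.8 and 119.8 in deleted pools, against 401.4, 925.6 and 639.1 in control pools. Its deleted pools were all lower and below the filter value, where MAS5 log ratios are noisy, whereas every control pool lay above that value.

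The proteases that these inhibitors act on were examined as a list of 49 genes, all on the array, of which 32 were above the filter. None passed by limma. With the unadjusted p below 0.05 there were 6 higher and 2 lower, against 6.05% and 6.02% of all genes tested, and the median log2 fold change was 0.23. The neutrophil granule proteases Elane, Prtn3 and Ctsg all lay below the filter. Among cysteine cathepsins and legumain, the targets of cystatins, 10 of 10 tested genes had positive values (median 0.41, from 0.09 to 0.88). Positive values were found for 6358 of all 12952 genes tested. With the unadjusted p below 0.05 (limma) there were 4 of the 10, against 6.05% of all genes. Ctss, a cathepsin of antigen-presenting cells, stood at 0.88 ± 0.18 (SE, adjusted p = 0.098, limma) and Ctsc, which activates granule serine proteases, at 0.41. Ctsk of this list is also in the macrophage list. Macrophage markers moved with the cathepsins (median 0.89), and their part in these values was not tested.

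Of 5 tested plasminogen and coagulation proteases, F7, which tissue factor activates, had a log2 fold change of 0.97 ± 0.21 (SE, adjusted p = 0.11, limma) and F10 0.60. F7 passed without control replicate 2 (adjusted p = 0.039, limma) and without control replicate 3 (adjusted p = 0.047, limma). Of all genes tested, 477 and 172 passed in these fits, against 84 in the reported fit. With any other pool left out F7 did not pass (adjusted p between 0.15 and 0.38, limma). The 9 membrane-anchored serine proteases had a median of -0.15. Among them St14, the matriptase that Spint1 inhibits, stood at -0.15, Prss8, prostasin, at -0.43 ± 0.13 (SE, adjusted p = 0.24, limma) and Tmprss13 at -0.73. The 4 granzymes and mast cell proteases tested had a median of 0.23, led by Gzmb, the target of Serpinb9, at 0.62 (adjusted p = 0.53, limma), with Cma1 at 0.25. Gzmb stood at 1.102 without control replicate 3 (adjusted p = 0.022, limma) and at 0.26 without control replicate 2 (adjusted p = 0.74, limma). The 4 kallikreins had a median of -0.30, with Klk11 at -0.75 and Klk8 at 0.42. Klk11 stood at -1.18 without control replicate 2 (adjusted p = 0.039, limma) and at -0.42 without control replicate 3 (adjusted p = 0.70, limma).

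Markers of the cells that could carry these transcripts were set beside them. Of the macrophage list, Marco (log2 2.26), Gpnmb (1.86), Mpeg1 (1.37), Fabp4 (1.07), Cd14 (1.04), Cd68 (0.9996) and Mrc1 (0.89) rose past the threshold by limma. By the same rule 0.625% of all genes tested rose. Of 10 neutrophil markers on the array 4 were above the filter (median 0.54). S100a8 stood at 1.01 and S100a9 at 0.95 without passing (adjusted p = 0.18 and 0.24, limma), while Ltf stood at -0.17 and Ngp at 0.12. The summed signal of the neutrophil markers overlapped between groups, at 9938 to 11849 in deleted pools and 7032 to 11007 in control pools. Airway cell markers, from cells that also make SLPI, had negative values in 11 of 11 (median -0.33), as had 6594 of all 12952 genes. Of these markers 3 had an unadjusted p below 0.05 (6.02% of all genes tested, limma). Ccdc153 (-1.18) and Sox2 (-0.83) fell past the threshold by limma, among the 3 of 12952 genes tested (0.0232%) that did so. The summed signal of the airway markers overlapped between groups, at 405582 to 572505 in deleted pools and 500751 to 696658 in control pools. Lymphocyte markers had a median of 0.38 over 8 genes and none passed by limma. Ccr7 stood at 1.27 and Nkg7 at 0.89, and both had an unadjusted p under 0.05 (6.05% of all genes tested in that direction). Platelet (3 tested, median 0.07, Pf4 at 0.84 and Itga2b at -0.27), type I cell (8, 0.02, Ager at 0.61 and Hopx at -0.18), endothelial (8, -0.05, Vwf at -0.20 and Emcn at -0.25), mesenchymal (9, -0.13, Pdgfra at -0.46 and Lum at -0.37) and mesothelial markers (5, -0.41, Lrrn4 at -0.56 and Wt1 at -0.47) had no gene past the threshold by limma. In those 5 lists Pf4 alone had an unadjusted p below 0.05.

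**Figure D5:**
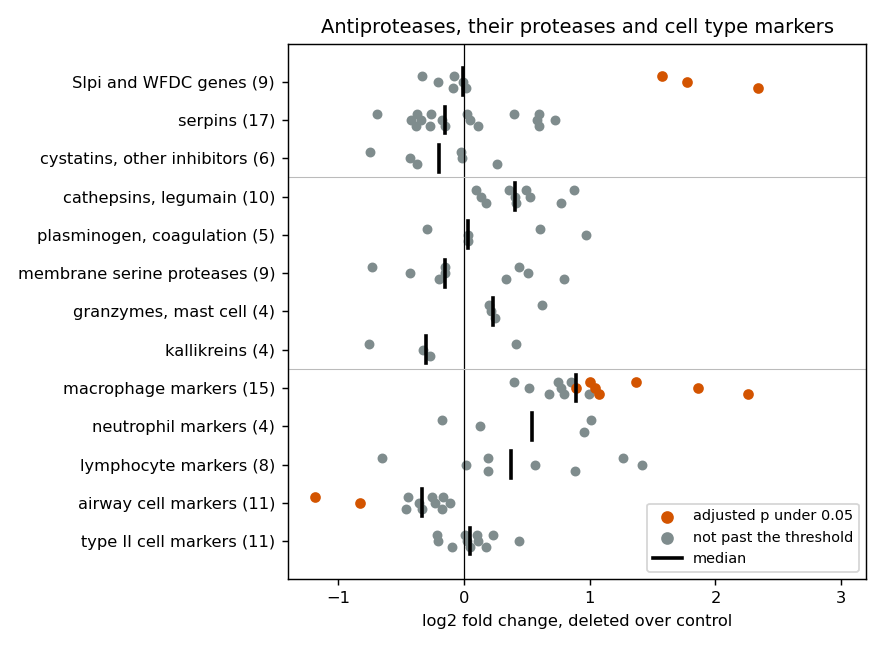
Log2 fold change, deleted over control (horizontal axis), of each gene tested in the antiprotease groups (top), the protease lists (middle) and marker lists (bottom), with the number of genes in brackets. Each point is a gene, orange where the adjusted p was under 0.05, and the black bar is the list's median. Orange points stand at Slpi and the WFDC genes, macrophage markers and, below 0, airway markers.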

How the data were processed

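RNA from 3 pools per genotype was hybridised to an Affymetrix mouse array. Per the submitters' processing notes the authors used MAS5, with no version named, and the deposited probe set intensities are linear. The values show that each array was scaled alone to a trimmed mean of 1500 (1499.6 to 1500), and array medians lay between 426 and 479. MAS5 leaves dim probe sets noisy. Genes were named through the platform annotation. By gene identifier, every member but Serpina4-ps1 matched a protein-coding gene of the GRCm38.p6 gene table. Probe sets naming several genes were left out.

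Signals under 1 were set to 1, log2 was taken, and no further normalization was applied. Probe sets with a mean below log2 8.08 (signal 271) were removed. The brightest probe set naming a gene alone stood for it, which gave 12952 genes. Probe set signals depend on the probes, so the order of signals between genes was used only to choose which members to describe pool by pool.

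The 2 genotypes were tested by limma 3.58.1 under R 4.3.3 (lmFit, eBayes with an intensity trend, two-sided, Benjamini-Hochberg over all genes tested, threshold 0.05). Fold changes are deleted over control. With 3 pools against 3 an exact permutation test cannot go below 0.1. The number of arrays limits the precision. The p-values rest on the spread between these pools alone, with each gene's variance drawn toward a trend over all genes tested. In simulated data with 12952 genes, 50 genes were changed at each size. Recovered were 4% of genes with a log2 change of 0.5, 60% with 1, 68% with 1.5 and 90% with 2. Of the 116 calls 5 were false. These shares hold for that setting and need not hold for these arrays.

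Members and gene lists were chosen with earlier results of these data known. Members were described pool by pool if past the threshold, if the groups did not overlap, or if among the 12 brightest, and the other members above the filter are given by name with a log2 fold change or range alone. Serpina3n, Spink5, Serpina9, St14, the genomic neighbours and the protease genes called in an alternative fit are described outside that rule, after their values had been seen. List genes were named if they passed, otherwise the 2 with the smallest p. Alternatives covered normalization, pseudocount, trend, array weights, filter, replicate block, probe set summary, threshold and each pool left out. Figures used matplotlib 3.10.9.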

Additional observations from a re-analysis of the deposited data

How the results depend on the processing

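Across the 16 alternative fits Wfdc17 passed in 16, Slpi in 13 and Wfdc21 in 11, all with positive log2 fold changes (limma). The count of antiprotease genes called was 3 with quantile normalization, a common median, a pseudocount of 16, no filter, the filter at the 60th percentile, the mean over probe sets, all probe sets tested singly and the pool number as a replicate block. It was 4 with array weights and at an adjusted p under 0.1. It was 1 (Wfdc17) without an intensity trend, and between 1 and 5 with a pool left out, the 5 without control replicate 2. The partner proteases called, 0 in the reported fit, were 1 with a common median (Ctss), 2 with array weights (Ctss, F7), 1 with the replicate block (F7), 1 at an adjusted p under 0.1 (Ctss), and between 0 and 2 with a pool left out. Over all genes, 84 passed in the reported fit, 132 with the block and 259 with array weights. Leaving out control replicate 2 gave 477, and leaving out another pool gave between 15 and 172. Same-numbered pools of the groups had deviations correlated at 0.07, 0.04 and 0.15, so the numbers were not taken as a pairing. The values that changed sign were all close to 0. Cstb stood at 0.0581 with a common median, 0.0268 with array weights, 0.0049 with the mean over probe sets and between -0.0664 and 0.0164 with a pool left out. Spint2 stood at 0.0649 with a common median and between -0.116 and 0.0921 with a pool left out. With a pool left out Serpinh1 lay between -0.0515 and 0.116 and Wfdc2 between -0.149 and 0.0328. The causes were not tested. Signal over background limits the 27 members below the filter and those near it, such as Serpini1.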
